A study of Mus musculus with 64 samples.

Results

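Corticosterone reaches its receptors through a short chain of proteins, and the transcripts of 10 of them were followed in the hippocampus and liver of mice. They are the receptor genes Nr3c1 and Nr3c2, the genes Hsp90aa1, Hsp90ab1, Fkbp4, Ptges3 and Stip1 of the Hsp90 chaperone complex, the hormone-regenerating pair Hsd11b1 and H6pd, and Serpina6, which encodes the hormone carrier of plasma. The genes were listed by name and found through the Ensembl gene ID that carries each symbol. All 10 were found among the 55414 gene IDs of the acute data and among the 55573 of the continuous data.

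The study compared wildtype (WT) mice with Angelman syndrome (AS) mice, with and without added corticosterone (CORT), in 64 RNA-seq samples. All animals were adult males of 10 to 18 weeks, F1 hybrids of a C57BL/6J father and a 129sv Ube3a m+/p- mother. AS mice carried the Ube3a deletion on the maternal allele (Ube3a m-/p+), which removes one exon, shifts the reading frame and abolishes UBE3A, a ubiquitin ligase, in neurons. The paternal allele stayed intact, so that cells which use it keep the protein, and the deletion was present in the whole body rather than in one cell type. In the acute cohort, 6 WT and 6 AS mice received a subcutaneous injection of 3 mg/kg CORT, 6 WT and 6 AS mice received its vehicle of ethanol in phosphate-buffered saline, and the hippocampus was taken after 3 h. In the continuous cohort, 5 mice of each genotype carried a 20 mg CORT pellet and 5 of each a vehicle pellet of cholesterol under the skin for 5 days, and both hippocampus and liver were taken. Each sample was 1 mouse, so the tests measure the spread between animals.

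The glucocorticoid receptor (GR, Nr3c1) and the mineralocorticoid receptor (MR, Nr3c2) are transcription factors that both bind corticosterone, MR with the higher affinity, and the hippocampus is the classical brain region in which both are found. Without hormone they rest in a complex in which Hsp70 passes the receptor to Hsp90 through the bridging protein Hop (Stip1), p23 (Ptges3) stabilizes the mature form, and the immunophilin FKBP52 (Fkbp4) favours hormone binding and transport to the nucleus. Corticosteroid-binding globulin (Serpina6) is made by the liver and holds most corticosterone in blood, and 11beta-hydroxysteroid dehydrogenase type 1 (Hsd11b1) regenerates corticosterone from 11-dehydrocorticosterone inside cells with cofactor that hexose-6-phosphate dehydrogenase (H6pd) supplies in the endoplasmic reticulum.

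The stretch of 250 bases before the RefSeq start was read for the 6 genes with an entry (GRCm38.p6), and 3 of these stretches are printed because their genes carry the liver and tissue results: Fkbp4 and Stip1, which rose together with CORT in WT liver, and Hsd11b1, which moved in opposite directions in the 2 tissues. Each is given 5′ to 3′ on the strand of its gene, with matches to GAANNTTC (the core of a heat shock element), CCAAT (the CAAT box), TATAAA (the TATA box) and AGAACA (a steroid receptor half-site) in capitals, both strands searched. Fkbp4 lies at chr6:128438657-128438906, Stip1 at chr19:7040027-7040276 and Hsd11b1 at chr1:193242361-193242610, all on the minus strand.
Fkbp4: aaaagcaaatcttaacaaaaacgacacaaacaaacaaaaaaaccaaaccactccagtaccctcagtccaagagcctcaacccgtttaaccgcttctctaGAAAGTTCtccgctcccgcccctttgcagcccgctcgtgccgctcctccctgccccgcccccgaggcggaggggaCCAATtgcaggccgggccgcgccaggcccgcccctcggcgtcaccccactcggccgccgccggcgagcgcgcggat
Stip1: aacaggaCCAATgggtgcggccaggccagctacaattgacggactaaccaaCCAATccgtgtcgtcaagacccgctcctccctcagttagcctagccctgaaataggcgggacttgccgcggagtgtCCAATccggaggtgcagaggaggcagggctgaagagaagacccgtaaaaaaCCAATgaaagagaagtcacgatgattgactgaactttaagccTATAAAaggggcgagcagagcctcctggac
Hsd11b1: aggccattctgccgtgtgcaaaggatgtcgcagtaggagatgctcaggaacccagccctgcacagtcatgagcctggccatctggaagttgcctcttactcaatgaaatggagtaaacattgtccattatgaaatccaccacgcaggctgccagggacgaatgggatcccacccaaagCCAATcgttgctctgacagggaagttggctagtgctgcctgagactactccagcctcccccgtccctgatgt
The Fkbp4 stretch held GAANNTTC from -151 and CCAAT from -76, counted back from the start. The Stip1 stretch held CCAAT at 4 places, from -243, -199, -123 and -72, and TATAAA from -30. The Hsd11b1 stretch held CCAAT from -72. Of the others, Nr3c2 held GAANNTTC from -151 and CCAAT at 3 places, H6pd held CCAAT from -206 and AGAACA from -94, and Ptges3 held none of the 4. For Hsd11b1, Nr3c2 and H6pd the whole stretch lies within the limits of the annotated gene rather than before them. Over 32851 stretches of the same length, 6.69% held GAANNTTC, 33.8% CCAAT, 12.4% TATAAA and 16.1% AGAACA. A match is a description of letters and not a binding site. Nr3c1, Hsp90aa1, Hsp90ab1 and Serpina6 had no entry.

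Between 18612550 and 21783009 reads per sample were counted on genes over the 2 cohorts and 2 tissues, and 3 counts corresponded to 0.138 to 0.161 CPM (read count scaled to library size, with TMM normalization for composition), a floor that covers counting error only. Hepatocyte markers summed to between 87945 and 133618 CPM in the livers and to at most 109 CPM in the hippocampi kept, where Apob, Cyp2e1, Hnf4a and Tat stood at a median of 3 counts or fewer, and all 6 markers of hippocampal neurons passed the filter in both hippocampal data sets. The continuous hippocampi of mice 9 (AS vehicle) and 13 (WT vehicle) were left out of the fits. Their neuron markers summed to 351 and 401 CPM against 635 to 1060 in the other 18 mice, mouse 9 had 1631 CPM of thalamus markers, and mouse 13 had 13316 CPM of choroid plexus markers. The acute libraries fell into 2 sets by reads set aside for low alignment quality, 1877 to 2237 in 16 and 2640 to 2850 in 8, and the 8 were all 6 AS CORT mice with AS vehicle mice 17 and 18. Whole-gene counts of Ube3a did not separate the genotypes in hippocampus (log2 fold change of -0.06 in acute vehicle mice, adjusted p = 0.895, edgeR quasi-likelihood test), where the deleted exon was not counted apart, and were lower in AS liver (-0.55, adjusted p = 0.0191). Fkbp5, a glucocorticoid target that encodes another immunophilin of the receptor complex, rose with CORT in every data set and genotype, from a log2 fold change of 0.58 in the continuous WT hippocampus to 4.14 in AS liver.

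Of the genes with enough counts to test, 9 members in each hippocampal data set and all 10 in liver, those that passed the threshold (adjusted p under 0.05 over all genes tested, edgeR quasi-likelihood test with Benjamini-Hochberg adjustment) are given beside the share of all genes that passed. At 3 h, CORT moved 1 of 9 members in WT hippocampus, where 1.48% of all 14611 genes passed, and 2 of 9 in AS hippocampus, where 17.9% passed. At 5 days it moved 1 of 9 in WT hippocampus (2.92% of 14949 genes) and 2 of 9 in AS hippocampus (3.77%). In liver, the same 5 days moved 8 of 10 members in WT mice (18.6% of 12273 genes) and 3 of 10 in AS mice (27.5%). All of the hippocampal changes were decreases, whereas in WT liver 5 members rose and 3 fell. The 3 data sets were fitted apart, so these counts were not compared by a test. In AS liver and in acute AS hippocampus the members passed at about the share of all genes. The members were also chosen with earlier results of these data known.

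Nr3c1 (ENSMUSG00000024431, GRCm38 chromosome 18, 39410545 to 39519421, minus strand) encodes GR, and its transcript fell with CORT in the acute hippocampus and in liver of both genotypes, while the decrease in the continuous hippocampus did not pass the threshold. At 3 h after injection it stood at 80.7 to 96.6 CPM in WT vehicle mice (median 85.5) and at 52.0 to 68.6 in WT CORT mice (median 63.4). In AS mice it ranged from 79.3 to 95.6 CPM with vehicle (median 86.1) and from 64.0 to 75.3 with CORT (median 68.3). Neither genotype had a CORT mouse within the range of its vehicle mice. The log2 fold change was -0.48 ± 0.0653 (SE, 6 against 6 mice, adjusted p = 3.62e-05) in WT and -0.34 ± 0.0651 (adjusted p = 0.00104) in AS mice, a fall of 28.5% and of 21.1%. The interaction, the AS effect minus the WT effect, was 0.14 (95% interval -0.05 to 0.33, adjusted p = 0.35). The AS call depended on the division of the libraries: with a covariate for it the change was -0.36 and its adjusted p 0.0537, and against vehicle mice 17 and 18 alone it was -0.36 with 0.0658. In whole tissue, fewer cells of a type and less RNA per cell cannot be told apart, here and in each result that follows.

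After 5 days the hippocampal GR transcript was lower by a like amount but short of the threshold. WT vehicle mice 1, 4, 6 and 17 had 95.4, 80.1, 101 and 103 CPM, and WT CORT mice 3, 5, 12, 15 and 20 had 79.4, 63.6, 73.0, 81.3 and 74.0. AS vehicle mice 2, 11, 14 and 19 had 83.9, 108, 94.7 and 105 CPM, and AS CORT mice 7, 8, 10, 16 and 18 had 95.4, 73.0, 64.9, 86.0 and 67.8. WT vehicle mouse 4 and AS vehicle mice 2 and 14 lay within the range of the CORT mice of their genotype. The change on the log2 scale was -0.36 ± 0.109 in WT (95% interval -0.58 to -0.13, adjusted p = 0.0953) and -0.34 ± 0.109 in AS mice (-0.57 to -0.11, adjusted p = 0.1). The Wald test of DESeq2 put the WT change past the threshold (-0.35, adjusted p = 0.0422). So did the fit of the mice of high liver Arntl, which drops vehicle mice 1, 2 and 4 and CORT mice 3, 7 and 8 and leaves 2 WT vehicle mice, in both genotypes (-0.49, adjusted p = 0.041 in WT and -0.50, adjusted p = 0.0256 in AS mice). Leaving out 1 mouse had the same outcome, mouse 4 for the WT change (-0.42, adjusted p = 0.0473) and mouse 7 for the AS change (-0.42, adjusted p = 0.0293).

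The liver change of Nr3c1 was the smallest in size and the most even between mice. WT vehicle mice 1, 4, 6, 13 and 17 had 84.5, 83.8, 84.9, 84.8 and 85.7 CPM, a mean of 84.8 ± 0.683 (SD, n = 5). WT CORT mice 3, 5, 12, 15 and 20 had 75.9, 78.5, 74.5, 76.4 and 76.7 CPM. AS vehicle mice 2, 9, 11, 14 and 19 had 85.7, 83.9, 81.6, 92.7 and 89.2 CPM, and AS CORT mice 7, 8, 10, 16 and 18 had 76.4, 75.5, 74.9, 74.7 and 70.2. Each of the 10 CORT livers was below each of the 10 vehicle livers. CORT changed it on the log2 scale by -0.15 ± 0.0437 in WT (adjusted p = 0.0202) and -0.22 in AS mice (95% interval -0.31 to -0.13, adjusted p = 0.000766), and the interaction was -0.07 (adjusted p = 0.76). Without the filter on low counts the WT change was -0.15 with an adjusted p of 0.184, and among the 14 mice of high liver Arntl, a division described below, it was -0.16 with an adjusted p of 0.074. Markers of Kupffer cells, the macrophages of the liver, were lower with CORT at all 4 genes of the list in both genotypes, from 109 to 148 CPM in sum in WT vehicle mice to 53.9 to 81.4 in WT CORT mice, and from 144 to 203 to between 55.7 and 82.2 in AS mice, and their part in the change of Nr3c1 was not tested.

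**Figure D1:**
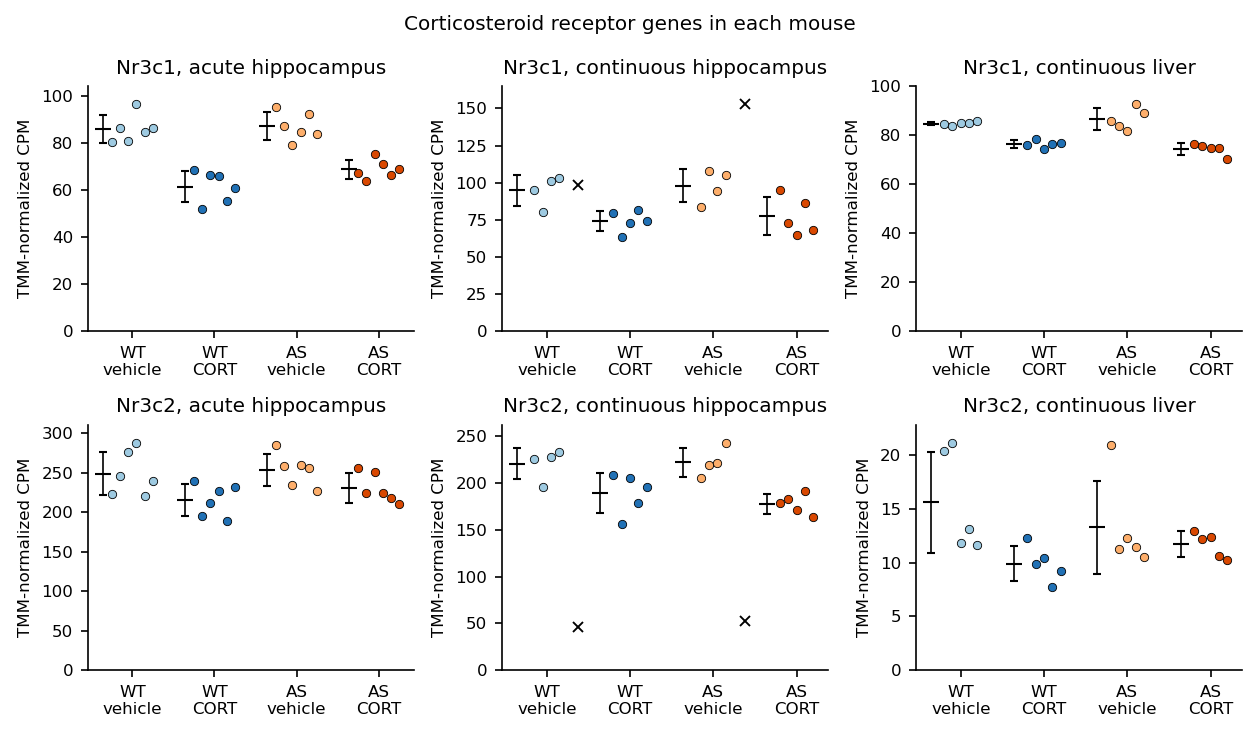
Nr3c1 and Nr3c2 in TMM-normalized CPM (vertical axes) in each mouse, by genotype and treatment, for the acute hippocampus (6 mice a group), the continuous hippocampus (4 or 5) and the continuous liver (5). Points are mice, bars are mean and SD, and crosses are the left-out mice 9 and 13. Nr3c1 lies lower in CORT mice without overlap in the acute hippocampus and in liver and with overlap in the continuous hippocampus, where the change did not pass the threshold, and Nr3c2 in liver has 3 vehicle mice between 20.4 and 21.1 CPM above the rest.

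Nr3c2 (ENSMUSG00000031618, chromosome 8, 76899442 to 77245012, plus strand) encodes MR. Its exons share 247 bases, 3.8% of their length, with Gm10649 on the opposite strand, and whether the counting used strand is not given in the sources used here. In the acute hippocampus it ranged from 221 to 288 CPM in WT vehicle mice (median 243) and from 189 to 240 in WT CORT mice (median 220), and these ranges overlapped. In AS mice the ranges were 227 to 286 CPM with vehicle (median 258) and 211 to 257 with CORT (median 224). The log2 fold changes were -0.21 (95% interval -0.36 to -0.05, adjusted p = 0.257) and -0.14 (-0.29 to 0.02, adjusted p = 0.201).

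After 5 days the hippocampal MR transcript was lower with CORT than with vehicle, past the threshold in AS mice. AS vehicle mice 2, 11, 14 and 19 had 205, 220, 221 and 243 CPM and AS CORT mice 7, 8, 10, 16 and 18 had 178, 183, 171, 192 and 164, without overlap. WT vehicle mice 1, 4, 6 and 17 had 225, 196, 227 and 234 CPM, and WT CORT mice 3, 5, 12, 15 and 20 had 208, 156, 206, 179 and 196, with overlap. This gave a log2 fold change of -0.32 ± 0.0767 in AS mice (adjusted p = 0.0206) and -0.22 in WT mice (95% interval -0.38 to -0.06, adjusted p = 0.141). The genotypes were not shown to differ, with an interaction of -0.10 (95% interval -0.33 to 0.13, adjusted p = 1). The left-out mice 9 and 13 had 52.3 and 45.6 CPM, the lowest of the 20, and with both included the AS change was -0.08 (adjusted p = 0.951). The AS call was also lost without mouse 11, 18 or 19, with adjusted p of 0.0509 to 0.0871.

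The liver held far less Nr3c2, and there the vehicle mice divided. WT vehicle mice 1, 4, 6, 13 and 17 had 20.4, 21.1, 11.8, 13.1 and 11.7 CPM, and WT CORT mice 3, 5, 12, 15 and 20 had 12.3, 9.92, 10.5, 7.73 and 9.19. AS vehicle mice 2, 9, 11, 14 and 19 had 20.97, 11.3, 12.3, 11.4 and 10.5 CPM, and AS CORT mice 7, 8, 10, 16 and 18 had 12.99, 12.2, 12.4, 10.6 and 10.2. This gave a log2 fold change of -0.66 ± 0.198 in WT (adjusted p = 0.0248) and -0.19 in AS mice (95% interval -0.60 to 0.23, adjusted p = 0.524), with an interaction of 0.47 (-0.11 to 1.05, adjusted p = 0.669). Without WT vehicle mouse 1 or 4 the WT change was -0.54 (adjusted p = 0.0771) or -0.52 (0.0749), and without WT CORT mouse 15 or 20 it was -0.58 (0.0671) or -0.63 (0.0577).

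The 3 high vehicle livers, mice 1, 2 and 4, were also those with low transcript of the clock gene Arntl. Arntl encodes BMAL1, and Dbp, a target of the clock, runs in the opposite phase. The livers of vehicle mice 1, 2 and 4 and CORT mice 3, 7 and 8 had 0.289 to 5.03 CPM of Arntl and 60.0 to 237 of Dbp, and the other 14 had 26.4 to 40.6 CPM of Arntl and 0.653 to 4.21 of Dbp. In the hippocampus of the same mouse numbers, Dbp was 53.8 to 85.6 CPM against 36.1 to 50.8. The clock genes Nr1d1 and Ciart were likewise apart there. Arntl itself overlapped, at 25.5 to 31.6 CPM against 27.2 to 38.7, as did the clock genes Npas2 and Per3. These clock genes were chosen after their values were seen, the labels give no hour of sampling, and the cause of the division was not tested. Nr3c2 in vehicle livers was 20.8 ± 0.405 CPM (SD, n = 3) at low Arntl and 11.7 ± 0.817 (n = 7) at high Arntl. Among the 14 mice of high Arntl the WT change with CORT was -0.39 (adjusted p = 0.0211), and with a covariate for the division it was -0.51 (adjusted p = 0.00261). The AS change was -0.038 (adjusted p = 0.841) among the mice of high Arntl and -0.26 (adjusted p = 0.0884) with the covariate.

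The Hsp90 complex is the part of the system that any receptor needs to bind hormone, and its 5 transcripts changed little with CORT in hippocampus. In the acute cohort all 5 log2 fold changes lay between -0.06 and -0.01 in WT mice and between 0.03 and 0.13 in AS mice, and after 5 days between -0.04 and 0.19 in WT and between -0.07 and 0.04 in AS mice. None of the 5 passed the threshold in these 4 comparisons by edgeR or DESeq2, and those with an unadjusted p under 0.05 were 2, Fkbp4 and Stip1, in the continuous WT hippocampus. Hsp90ab1, the constitutive Hsp90 gene, stood at 1617 to 1962 CPM in acute WT vehicle mice (median 1834) and 1592 to 1975 with CORT (median 1814). Fkbp4 stood at 76.8 to 96.9 CPM in those vehicle mice (median 88.6) and at 68.6 to 108 with CORT (median 80.2). Ptges3 held between 43.6 and 52.4 CPM over all 24 acute mice.

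In WT liver, 4 of the 5 chaperone transcripts rose with CORT. Hsp90aa1 (ENSMUSG00000021270, chromosome 12, 110690605 to 110702728, minus strand), the stress-inducible Hsp90 gene, was at 87.2, 133, 158, 110 and 130 CPM in WT vehicle mice 1, 4, 6, 13 and 17. In WT CORT mice 3, 5, 12, 15 and 20 it was at 133, 231, 199, 248 and 209 CPM, so that mouse 3 alone lay within the vehicle range. The log2 fold change was 0.73 ± 0.157 (adjusted p = 0.0025), an increase of 65.3%. In AS vehicle mice 2, 9, 11, 14 and 19 it was at 133, 123, 115, 127 and 153 CPM and in AS CORT mice 7, 8, 10, 16 and 18 at 127, 113, 163, 146 and 154, a change of 0.11 (95% interval -0.22 to 0.44, adjusted p = 0.653).

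Hsp90ab1 (ENSMUSG00000023944, chromosome 17, 45567775 to 45573271, minus strand) separated the WT livers fully. Vehicle mice had 689, 724, 814, 686 and 704 CPM and CORT mice 865, 1053, 887, 1120 and 1018, in the mouse order given for Hsp90aa1. The change on the log2 scale was 0.45 ± 0.0755 (adjusted p = 0.00026). In AS livers the values were 788, 804, 751, 792 and 861 CPM with vehicle and 796, 826, 945, 814 and 879 with CORT, a change of 0.09 (95% interval -0.07 to 0.25, adjusted p = 0.394).

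Stip1 (ENSMUSG00000024966, chromosome 19, 7020702 to 7039967, minus strand) went from 58.2, 67.0, 81.6, 63.5 and 69.3 CPM in WT vehicle livers to 74.8, 108, 83.7, 108 and 90.1 with CORT, and its lowest CORT mouse, again mouse 3, lay within the vehicle range. CORT changed it on the log2 scale by 0.45 ± 0.101 (adjusted p = 0.00323). Fkbp4 (ENSMUSG00000030357, chromosome 6, 128429735 to 128438677, minus strand) had 158, 162, 198, 150 and 144 CPM with vehicle and 172, 229, 186, 226 and 203 with CORT, a change of 0.33 ± 0.101 (adjusted p = 0.0279). This was the least secure of the 4, with an adjusted p of 0.053 after upper-quartile normalization and of 0.0574 when the 2 WT groups were fitted alone, and of 0.0559 (0.36) among the mice of high Arntl. Its call was also lost without any 1 of vehicle mice 1, 13 and 17 or of CORT mice 5, 15 and 20, at a change of 0.28 to 0.32. Ptges3 (ENSMUSG00000071072, chromosome 10, 128058954 to 128077272, plus strand) had 75.5, 83.9, 78.3, 73.0 and 68.3 CPM with vehicle and 82.9, 96.5, 85.2, 81.0 and 94.8 with CORT, a change of 0.22 ± 0.0777 (adjusted p = 0.0576). The Wald test of DESeq2 gave Ptges3 0.21 with an adjusted p of 0.0478.

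Both Hsp90 transcripts had lower means in the CORT livers of low Arntl, a difference that was not tested. Hsp90aa1 was 113 to 133 CPM in the 3 CORT livers of low Arntl (mean 124 ± 10.6, SD) and 146 to 248 in the 7 of high Arntl (193 ± 39.6), and Hsp90ab1 was 829 ± 34.6 against 959 ± 109 CPM. The low side held WT mouse 3 and AS mice 7 and 8. With a covariate for the division the WT changes were 0.65 for Hsp90aa1 (adjusted p = 0.00101) and 0.43 for Hsp90ab1 (adjusted p = 0.000162), and the AS changes were 0.16 (adjusted p = 0.391) and 0.11 (adjusted p = 0.244). Among the mice of high Arntl alone the AS change of Hsp90aa1 was 0.25 (adjusted p = 0.142). Ptges3 passed in WT livers with the covariate (0.23, adjusted p = 0.0306) and among the mice of high Arntl (0.29, adjusted p = 0.0287).

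In AS livers the same 3 genes changed by 0.15 for Stip1 (95% interval -0.06 to 0.36, adjusted p = 0.286), 0.04 for Fkbp4 (-0.17 to 0.25, adjusted p = 0.794) and 0.06 for Ptges3 (adjusted p = 0.598). All 5 liver interactions had a negative sign, -0.62 ± 0.221 for Hsp90aa1, -0.36 ± 0.107 for Hsp90ab1, -0.30 for Stip1, -0.28 for Fkbp4 and -0.15 for Ptges3, and their adjusted p lay between 0.474 and 0.715. The genotypes were therefore not shown to differ, although the 95% interval of the Hsp90ab1 interaction ran from -0.58 to -0.14 before adjustment over genes. None of the 12273 genes tested in liver passed for the interaction (0%) by edgeR, where 995 had an unadjusted p under 0.05 and DESeq2 called 9. Some of these genes varied together within groups, as given further on, so the 5 signs are not independent.

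**Figure D2:**
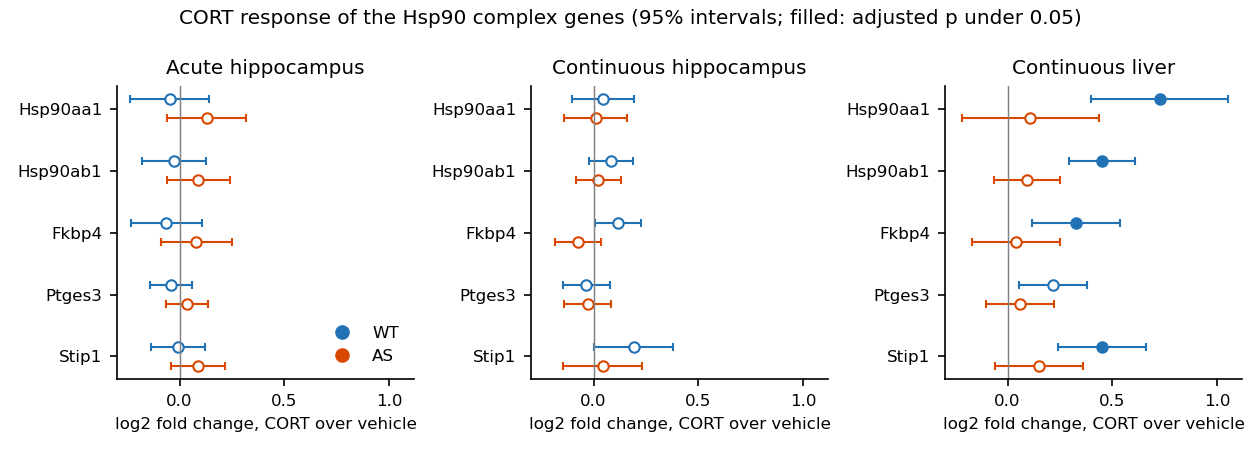
Log2 fold change of CORT over vehicle (horizontal axes) with 95% intervals for the 5 Hsp90 complex genes, WT in blue and AS in orange, in each data set. Filled points passed the threshold, which were Hsp90aa1, Hsp90ab1, Fkbp4 and Stip1 in WT liver at 0.33 to 0.73.

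Hsp90aa1 and Ptges3 have near-identical copies among the annotated transcripts. The 3 annotated copies of Hsp90aa1 (Gm12346, Gm5511 and Gm5844) held counts equal to 0.511% to 0.690% of its own, and Ptges3-ps held 4.10% to 5.09% of those of Ptges3. Reads without a unique alignment were set aside in the counting. These shares therefore do not show how many reads a gene and its copies have in common. The same search, for matches of at least 95% identity over 200 bases, found no copy of the other 8 members.

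In the acute hippocampus, Hsp90aa1 was the 1 member of 9 that separated the genotypes under CORT, a comparison in which 24.9% of all genes passed. It ranged from 613 to 721 CPM in WT CORT mice (median 623) and from 610 to 902 in AS CORT mice (median 770), with overlapping ranges and a log2 difference of 0.25 ± 0.0914 (adjusted p = 0.0493). All 6 AS CORT mice and none of the 6 WT CORT mice belong to the 8 libraries with more reads of low alignment quality. With a covariate for that division the difference was -0.051 (adjusted p = 0.985), and leaving out 1 mouse at a time lost the call for 17 of 24 mice, at differences of 0.18 to 0.25. Among AS vehicle mice, where both sides of the division are present, mice 17 and 18 exceeded the other 4 by 0.30 for Hsp90aa1 (adjusted p = 0.147), 0.24 for Hsp90ab1 and 0.20 for Stip1, a contrast that 8.23% of all genes and none of the 9 members passed.

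Hsd11b1 (ENSMUSG00000016194, chromosome 1, 193221634 to 193264075, minus strand) encodes 11beta-HSD1, and its transcript moved in opposite directions in the 2 tissues. In the continuous hippocampus, WT vehicle mice 1, 4, 6 and 17 had 36.9, 34.6, 31.4 and 35.8 CPM, and WT CORT mice 3, 5, 12, 15 and 20 had 27.8, 21.6, 27.6, 24.2 and 21.2. AS vehicle mice 2, 11, 14 and 19 had 28.7, 33.4, 30.7 and 29.6 CPM, and AS CORT mice 7, 8, 10, 16 and 18 had 21, 21.9, 21.1, 20.4 and 20.4. CORT and vehicle mice did not overlap in either genotype. This gave a log2 fold change of -0.50 ± 0.0775 in WT (adjusted p = 0.000902) and, among AS animals, -0.55 ± 0.0783 (adjusted p = 0.000277), a fall of 29.4% and of 31.6%. The left-out mice 9 and 13 had 24.9 and 9.37 CPM, and with them included the changes were -0.27 (adjusted p = 0.583) and -0.49 (adjusted p = 0.387). Adgre1, a macrophage gene that microglia also express and the only Kupffer cell marker tested in this data set, fell by 0.66 in WT and by 0.61 in AS mice, and choroid plexus markers summed to 80.5 to 2938 CPM in WT vehicle and 39.9 to 134 in WT CORT mice, and to 89.9 to 337 CPM in AS vehicle and 51.5 to 520 in AS CORT mice. Their part in the change of Hsd11b1 was not tested.

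In liver the same gene rose. WT vehicle mice 1, 4, 6, 13 and 17 had 676, 654, 635, 722 and 669 CPM, and WT CORT mice 3, 5, 12, 15 and 20 had 914, 961, 903, 883 and 861. AS vehicle mice 2, 9, 11, 14 and 19 had 709, 681, 682, 672 and 639 CPM, and AS CORT mice 7, 8, 10, 16 and 18 had 1257, 905, 945, 1261 and 1119. The lowest of the 10 CORT livers, at 861 CPM, stood above the highest of the 10 vehicle livers, at 722. This gave a log2 fold change of 0.43 ± 0.0805 in WT (adjusted p = 0.000687) and, among AS animals, 0.70 ± 0.0807 (adjusted p = 2.56e-06). In AS livers 3 CORT mice exceeded every WT CORT mouse, and the interaction was 0.27 ± 0.114 (95% interval 0.03 to 0.50, adjusted p = 0.558), so a difference between the genotypes did not hold up over all genes tested. Of the 6 hepatocyte markers, 3 were higher with CORT in AS livers, and their part in this rise was not tested.

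At 3 h no change of Hsd11b1 passed the threshold. It ranged from 18.8 to 24 CPM in acute WT vehicle mice (median 22.1) and from 17.7 to 30.9 with CORT (median 20.1). The ranges in AS mice were 18.2 to 22.3 CPM (median 21.1) and 20.2 to 27.8 (median 23.9). The log2 fold changes were -0.01 (adjusted p = 0.979) and 0.21 (95% interval 0.00 to 0.42, adjusted p = 0.143). WT CORT mouse 8, with the 30.9 CPM, stood far from its group. Without it, the AS difference from WT under CORT was 0.26 (adjusted p = 0.0138) and the interaction 0.34 (adjusted p = 0.0447), against 0.15 and 0.22 with it. Since all 6 AS CORT libraries and no WT CORT library are on the upper side of the library division, genotype under CORT and the division cannot be told apart here without the AS vehicle mice, and with all mice and the covariate the values were 0.096 (adjusted p = 0.979) and 0.19 (adjusted p = 0.92).

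H6pd (ENSMUSG00000028980, chromosome 4, 149979475 to 150009023, minus strand) encodes the enzyme that keeps 11beta-HSD1 supplied with NADPH. In the acute hippocampus it ranged from 7.60 to 9.96 CPM in WT vehicle mice (median 8.89) and from 8.97 to 10.8 in WT CORT mice (median 9.65). In AS mice it ranged from 8.33 to 11.6 CPM with vehicle (median 10.1) and from 7.82 to 9.70 with CORT (median 8.44). The ranges overlapped in both genotypes. The log2 fold change was 0.15 (adjusted p = 0.538) in WT and -0.26 ± 0.0823 in AS mice (adjusted p = 0.03). H6pd was the 1 member of 9 past the threshold for the interaction, which 4.49% of all genes passed, at -0.41 ± 0.116 (95% interval -0.65 to -0.17, adjusted p = 0.0445).

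Both H6pd calls depended on the AS vehicle mice of the other library set. With a covariate for the division the AS change was -0.07 (adjusted p = 0.953) and the interaction -0.22 (adjusted p = 0.891). The 4 AS vehicle mice of the lower side had 10.8 ± 0.809 CPM (SD) and mice 17 and 18 had 9.50 and 8.33, against 8.50 ± 0.677 in the AS CORT mice. The interaction call was lost without 16 of the 24 mice, each in turn, at -0.43 to -0.37, and without a filter on low counts (-0.42, adjusted p = 0.0962). The AS change lost its call without mouse 13, 14, 15, 20 or 22, and without the filter (-0.27, adjusted p = 0.0704). Myelin markers summed to 2484 to 4827 CPM in AS vehicle mice and 1688 to 3334 in AS CORT mice, with 2 of 6 genes lower, and their part was not tested. After 5 days H6pd changed by -0.11 and -0.01 in the WT and AS hippocampus and by 0.13 (adjusted p = 0.464) and -0.05 (adjusted p = 0.768) in liver, where it ranged from 431 to 722 CPM over the 20 mice.

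**Figure D3:**
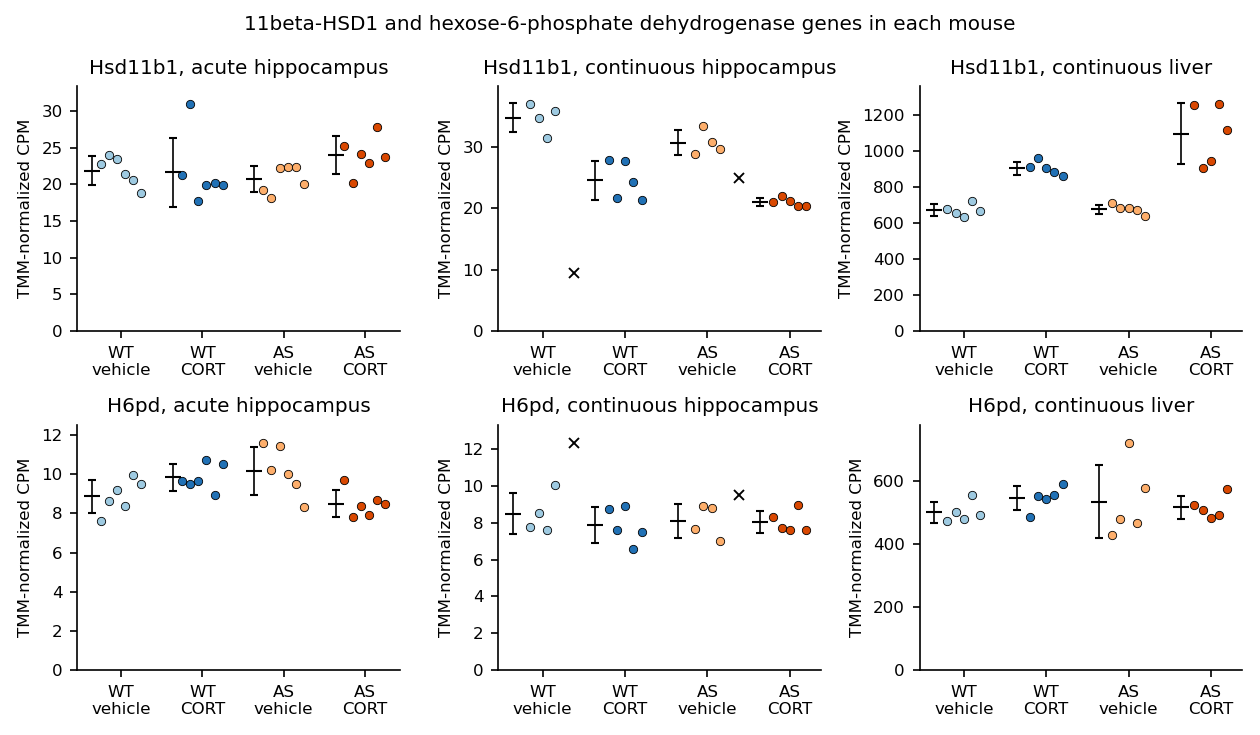
Hsd11b1 and H6pd in TMM-normalized CPM (vertical axes) in each mouse, by genotype and treatment, in the 3 data sets. Points are mice, bars are mean and SD, and crosses are the left-out mice 9 and 13. Hsd11b1 with continuous CORT lies below vehicle in hippocampus (20.4 to 27.8 against 28.7 to 36.9 CPM) and above it in liver (861 to 1261 against 635 to 722).

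Serpina6 (ENSMUSG00000060807, chromosome 12, 103646630 to 103657212, minus strand) showed the largest response of the 10 genes. WT vehicle livers of mice 1, 4, 6, 13 and 17 had 401, 475, 171, 241 and 217 CPM, and WT CORT livers of mice 3, 5, 12, 15 and 20 had 97.7, 53.7, 60.2, 62.5 and 65.0. AS vehicle livers of mice 2, 9, 11, 14 and 19 had 580, 255, 272, 228 and 261 CPM, and AS CORT livers of mice 7, 8, 10, 16 and 18 had 59.0, 57.0, 54.6, 65.3 and 57.6. No CORT liver reached the lowest vehicle liver. The change on the log2 scale was -2.15 ± 0.278 in WT (95% interval -2.73 to -1.57, adjusted p = 1.73e-05) and -2.44 ± 0.281 in AS mice (-3.03 to -1.86, adjusted p = 2.41e-06), a fall of 77.5% and of 81.6%. The interaction was -0.29 (-1.08 to 0.50, adjusted p = 0.833).

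The spread among vehicle livers followed the same division as that of Nr3c2. Vehicle mice 1, 2 and 4, with low Arntl, had 486 ± 89.7 CPM of Serpina6 (SD, n = 3), and the 7 vehicle mice of high Arntl had 235 ± 34.0. Under CORT the 3 low-Arntl mice had 57.0 to 97.7 CPM and the 7 others 53.7 to 65.3, ranges that overlapped. Among the mice of high Arntl the fall with CORT was -1.80 in WT (adjusted p = 4.53e-08) and, among AS animals, -2.10 (adjusted p = 9.16e-09), so it remained within that side of the division. In hippocampus Serpina6 was at or under the floor of 3 counts in every mouse, with 1 count in each of 5 acute mice, 2 counts in continuous mouse 1 and 1 in mouse 18, and it was not tested there.

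**Figure D4:**
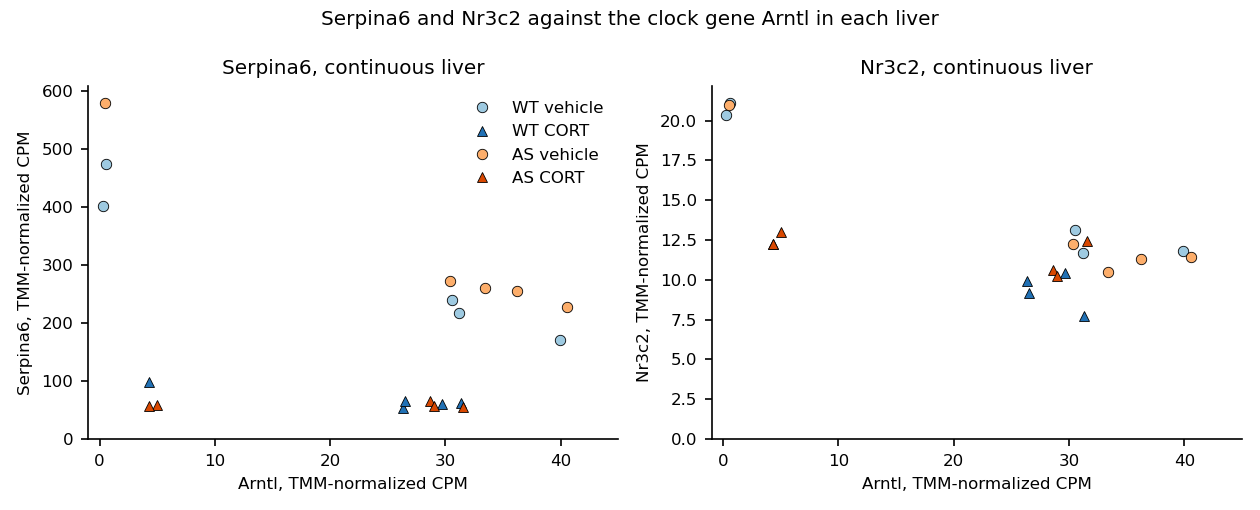
Serpina6 (left) and Nr3c2 (right) against the clock gene Arntl in each of the 20 continuous livers, all in TMM-normalized CPM, with circles for vehicle and triangles for CORT. The 3 vehicle livers of low Arntl carry the highest values of both genes (401 to 580 and 20.4 to 21.1 CPM).

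Between AS and WT mice of the same treatment, Hsp90aa1 under acute CORT, described above, was the only member past the threshold, and under other settings Nr3c1 (0.18, adjusted p = 0.0462, upper-quartile normalization) or H6pd (-0.21, adjusted p = 0.0488, the 2 groups alone) passed there too. With vehicle, 0 of 9 members passed in the acute hippocampus (0.157% of all genes), 0 of 9 in the continuous hippocampus (0.0134%) and 0 of 10 in liver (0.0163%), by edgeR and by DESeq2. Those with an unadjusted p under 0.05 were 2, 1 and 0. Under continuous CORT, 0 of 9 passed in hippocampus (0.0401% of all genes) and 0 of 10 in liver (0.277%) by both tools, with 1 and 4 at an unadjusted p under 0.05. For the interaction in the continuous hippocampus, 0 of 9 members and 0% of all genes passed by both tools, with 1 member and 561 genes at an unadjusted p under 0.05, and in liver 0 of 10 members passed by both tools, with 4 at an unadjusted p under 0.05. For GR in vehicle mice, the AS minus WT difference was 0.02 in the acute hippocampus (adjusted p = 0.96), 0.04 in the continuous hippocampus and 0.03 in liver. For Serpina6 in vehicle livers it was 0.08 (adjusted p = 0.932).

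Of 25 other chaperones and cochaperones, 1 rose in acute WT hippocampus (median log2 fold change of the list 0.01), 1 rose and 1 fell in acute AS hippocampus (0.09), 3 rose in continuous WT hippocampus (0.06) and 1 in continuous AS hippocampus (0.01). The shares of all genes called in these comparisons were 1.48%, 17.9%, 2.92% and 3.77%. The gene that rose in all 4 was Fkbp5, the one that fell was Hsf1, the heat shock transcription factor (-0.28, adjusted p = 0.0171), and Hspa1b, an inducible Hsp70, rose by 0.70 in continuous WT hippocampus (adjusted p = 0.0247). The Hsf1 call came from acute AS mice, whose CORT and vehicle groups differ in the library division. With AS vehicle mice of the upper side only, 130 genes passed in that comparison in place of 2612, and no value of Hsf1 is given for that setting. In liver, where 24 of the 25 were tested, 6 rose and 1 fell in WT mice (0.17) and 8 rose in AS mice (0.13), beside 18.6% and 27.5% of all genes called and medians of all genes within 0.01 of 0. Hsph1, an Hsp110 chaperone, rose by 0.75 in WT (adjusted p = 0.0248) and by 0.69 in AS livers (adjusted p = 0.0315), and Trap1, the mitochondrial Hsp90, fell by 0.21 in WT livers (adjusted p = 0.00822).

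Of 11 other genes of hormone handling, 10 were tested in liver, where 3 rose and 2 fell in WT mice (median 0.20) and 5 rose and 2 fell in AS mice (median 0.26), beside 18.6% and 27.5% of all genes called. Slc37a4, the glucose-6-phosphate carrier that feeds H6pd in the endoplasmic reticulum, rose by 0.79 in WT (adjusted p = 0.0269) and by 1.31 in AS livers (adjusted p = 0.000444). Its means were 211 ± 79.4 CPM in WT vehicle and 363 ± 39.97 in WT CORT livers (SD, n = 5). Srd5a1, a steroid 5alpha-reductase, rose by 0.44 in WT livers (adjusted p = 0.007), and Abcb1a, which encodes a P-glycoprotein that exports corticosteroids, rose by 0.89 in AS livers (adjusted p = 0.0255). Akr1c6, a hydroxysteroid dehydrogenase of liver, fell from 1330 ± 85.7 to 773 ± 70.5 CPM in WT (-0.78, adjusted p = 6.5e-07) and by 0.64 in AS livers (adjusted p = 4.47e-06), and Srd5a2, the second 5alpha-reductase, fell by 0.60 and 0.76 from levels near 1 CPM. In hippocampus 5 or 6 of the 11 were tested, and only Srd5a1 passed, in acute AS mice (-0.52, adjusted p = 0.0126), where 17.9% of all genes were called. There the CORT and vehicle groups also differ in the library division. With AS vehicle mice of the upper side only, 130 genes passed in place of 2612, and no value of Srd5a1 is given for that setting. In the other 3 hippocampal comparisons 0 passed by edgeR or DESeq2, with 0, 0 and 1 at an unadjusted p under 0.05.

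Of 13 receptor coregulators, Ncoa3, a coactivator also known as SRC-3, fell in liver by 0.26 in WT (adjusted p = 0.0212) and by 0.39 in AS mice (adjusted p = 0.000568). No other coregulator passed with CORT in liver, where 18.6% and 27.5% of all genes were called. In acute WT and in WT and AS continuous hippocampus 0 passed by edgeR or DESeq2, with 0, 1 and 2 at an unadjusted p under 0.05. Of the 4 targets used as a check of treatment, Fkbp5 and Tsc22d3, which encodes the glucocorticoid-induced leucine zipper, rose in acute hippocampus (0.82 and 0.79 in WT, 1.10 and 1.06 in AS mice) and in liver (3.43 and 1.25 in WT, 4.14 and 1.74 in AS mice). Sgk1, a kinase that responds to both receptors, rose by 1.07 and 1.59 in the WT and AS continuous hippocampus.

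Levels of different genes can be compared only per length of exon, as CPM per kb within one data set. In vehicle mice of the acute hippocampus, Hsp90ab1 led with 607 ± 51.5 CPM per kb (SD, n = 12), followed by Hsp90aa1 with 173 and Stip1 with 84.9. Nr3c2 stood at 38.8 and Fkbp4 at 29.3, with overlapping ranges, then came Ptges3 at 21.7, Nr3c1 at 11.3, Hsd11b1 at 5.01 and H6pd at 1.82. MR transcript thus exceeded GR transcript in every vehicle mouse of the acute hippocampus. The continuous hippocampus gave the same order except that Ptges3 (41.0) and Fkbp4 (37.6) came before Nr3c2 (34.2), each overlapping its neighbour. In liver the order was Hsp90ab1 with 254, Hsd11b1 with 159, Serpina6 with 176 ± 74.5 and a lower median, H6pd with 99.0, Fkbp4 with 60.9, Ptges3 with 35.0, Hsp90aa1 with 32.3, Stip1 with 32.2, Nr3c1 with 11.2 and Nr3c2 with 2.23. There the range of Serpina6, 97.1 to 329, overlapped those of Hsp90ab1, Hsd11b1 and H6pd, and the ranges of Ptges3, Hsp90aa1 and Stip1 overlapped each other, so the places of Serpina6 and of these 3 genes among themselves were not settled. In liver GR transcript exceeded MR transcript in every vehicle mouse.

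Liver and hippocampus of the vehicle mice were compared in one fit of both tissues, in which 93.1% of all 15937 genes and 10 of 10 members passed, 6 higher in liver and 4 lower, so a call by itself says little. The sizes differed widely. On the joint scale Hsd11b1 stood at 5.55 ± 0.521 CPM per kb in hippocampus (SD, n = 8) and at 212 ± 8.62 in liver (n = 10), a log2 difference of 5.26 ± 0.0768. H6pd rose from 1.14 ± 0.131 to 132 ± 20.7 (6.85 ± 0.102), so the transcripts of the enzyme and of its cofactor supplier were both far lower in hippocampus than in liver. Serpina6 had 63043 counts of 196247237 in 10 livers and 2 counts of 171097307 in 8 hippocampi, a ratio of 27482 with a counting interval of 7607 to 226932. Both hippocampal counts came from the same mouse, and the interval does not cover the spread between mice. Nr3c2 ran the other way, from 24.7 ± 1.57 CPM per kb in hippocampus to 2.99 ± 0.936 in liver (-3.05 ± 0.115), and Hsp90aa1 from 189 ± 13.4 to 43.2 ± 6.95 (-2.13). Fkbp4 was higher in liver, 81.5 ± 10.6 against 27.2 ± 1.34 (1.58), Hsp90ab1 lower, 339 ± 25.3 against 464 ± 28.7 (-0.45), and Stip1 lower, 43.0 ± 4.35 against 54.9 ± 5.62 (-0.35).

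For Nr3c1 and Ptges3 the direction between tissues depended on the scaling. The joint fit gave 0.72 and 0.66 in favour of liver, but with library size alone the differences were -0.13 (adjusted p = 0.0418) and -0.19 (adjusted p = 0.000709). The 10 most abundant genes took 16.2% to 20.6% of the counts in liver and 4.30% to 5.07% in hippocampus, and library size alone moved the median difference of all genes from -0.16 to -1.01. The split of calls moved with it, from 6932 genes higher and 7901 lower in liver to 4384 higher and 10505 lower. The other 7 members that could be given a fitted difference kept their direction, with 4.41 for Hsd11b1, 6.00 for H6pd, 0.73 for Fkbp4, -3.90 for Nr3c2, -2.98 for Hsp90aa1, -1.30 for Hsp90ab1 and -1.20 for Stip1.

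**Figure D5:**
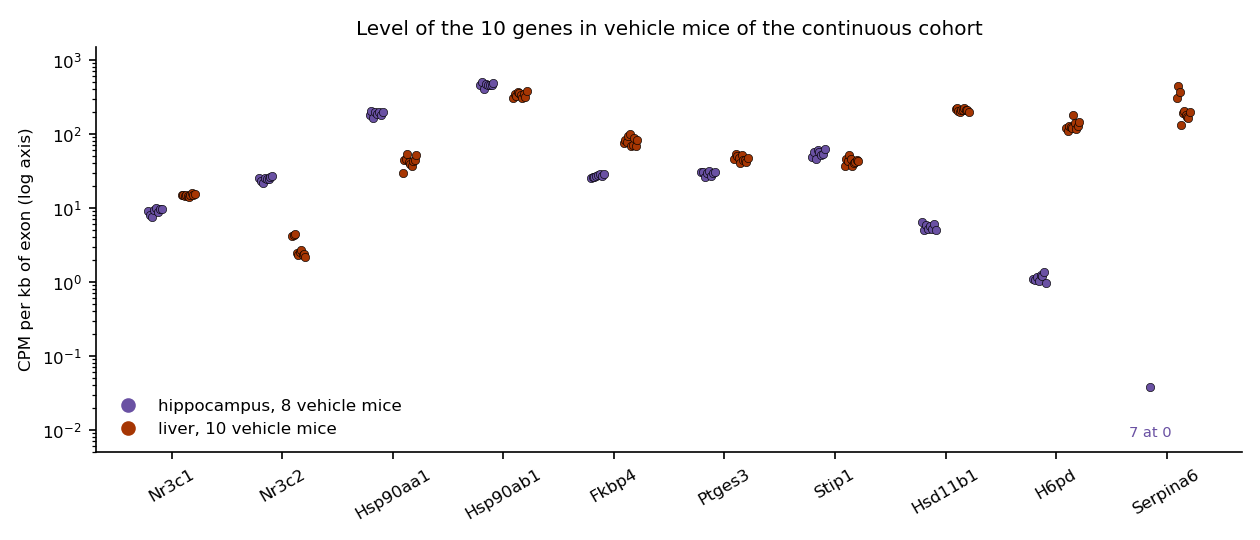
Levels of the 10 genes in CPM per kb of exon (log axis, joint normalization of both tissues) in the 8 hippocampi and 10 livers of vehicle mice of the continuous cohort. Each point is a mouse, and 7 hippocampi without Serpina6 counts are written as a number. Hsd11b1, H6pd and Serpina6 are far higher in liver and Nr3c2 in hippocampus, whereas the order of tissues for Nr3c1 and Ptges3 turns round with library size alone.

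The CORT effect in liver minus that in hippocampus, over both genotypes, passed for 19.9% of all genes and for 4 of 10 members. For Hsd11b1 this difference was 1.12 ± 0.086 (95% interval 0.94 to 1.29, adjusted p = 6.26e-12), and it passed under every alternative tried. For Hsp90aa1 it was 0.42 ± 0.133 (adjusted p = 0.0233), for Hsp90ab1 0.25 ± 0.0771 (adjusted p = 0.0204) and for Ptges3 0.20 ± 0.0707 (adjusted p = 0.0448). Both tissues came from the same mice, and with the mouse number as a block the difference was 1.12 for Hsd11b1 (adjusted p = 3.8e-07) and 0.38 for Hsp90aa1 (adjusted p = 0.035), while Hsp90ab1 (0.23, adjusted p = 0.099) and Ptges3 (0.16, adjusted p = 0.155) no longer passed. With library size alone the 3 chaperone differences were 0.31, 0.14 and 0.09 with adjusted p of 0.0891, 0.203 and 0.399, beside a median of all genes of -0.08 against 0.02. The calls of all genes then split into 1036 higher and 2397 lower, against 1749 and 1427 in the joint fit. For Nr3c1 the difference was 0.19 (adjusted p = 0.093), and it was past the threshold without mouse 4 (0.23, adjusted p = 0.0366) or mouse 7 (0.23, adjusted p = 0.0309).

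Within groups, some pairs of chaperone transcripts varied together from mouse to mouse, 3 of 10 in the acute hippocampus, 5 of 10 in the continuous hippocampus and 6 of 10 in liver by Pearson's r. Correlations were taken on deviations of log2 CPM from the group mean, for 10 gene pairs in each of 3 data sets, with two-sided permutation tests within groups adjusted over the 30. In the acute data the groups were also split by library set, which divided the AS vehicle mice into 4 and 2. Hsp90ab1 and Stip1 correlated in the acute hippocampus (Pearson's r = 0.81, permutation p = 2e-05, adjusted p = 0.0006, Spearman's rho = 0.82, permutation p = 5e-05, adjusted p = 0.00075, n = 24), with r = 0.77 without the 2 mice farthest from the median of Hsp90ab1 and r = 0.80 and 0.85 within the 2 library sets. They did so in the continuous hippocampus (r = 0.83, permutation p = 0.00025, adjusted p = 0.00217, rho = 0.84, permutation p = 0.00025, adjusted p = 0.0025, n = 18, r = 0.81 without the 2 farthest, r = 0.85 and 0.79 within the clock sides). In liver the same pair gave r = 0.68 (permutation p = 0.0102, adjusted p = 0.0254, rho = 0.62, permutation p = 0.0168, adjusted p = 0.0369, n = 20, r = 0.52 without the 2 farthest, r = 0.72 and 0.56 within the clock sides).

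The 2 Hsp90 genes correlated with each other in all 3 data sets as well, with r = 0.75, 0.75 and 0.81 (adjusted permutation p = 0.00217, 0.00583 and 0.00217) and rho = 0.67, 0.73 and 0.84 (adjusted permutation p = 0.0106, 0.0131 and 0.00075). Without the 2 farthest mice r was 0.61, 0.81 and 0.81. In all, 14 of 30 pairs passed by Pearson's r and 15 by Spearman's rho. The share of other gene pairs that would pass the same test was not computed, so these counts cannot be read as particular to the complex. Ptges3 took part in none of the pairs that passed in the acute hippocampus or liver, and for Fkbp4 with Stip1 in the continuous hippocampus the r of 0.65 was 0.57 among the 12 mice of high liver Arntl and -0.64 among the 6 others.

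As a description with no test, the genes whose log2 CPM followed a member most closely across the samples of a data set were sought among all genes tested. For Nr3c1 they were Lgr4 (r = 0.92), Celsr1 (0.90) and Zeb2 (0.87) over 24 acute hippocampi, Sash1 (0.92), Gramd3 (0.91) and Rasgrp3 (0.90) over 18 continuous hippocampi, and Igsf10 (0.96), Col14a1 (0.94) and Cib3 (0.93) over 20 livers. For Nr3c2 they were Kcnb2 (0.84), Zeb2 (0.83) and Pde10a (0.80), then Ddx58 (0.86), Klhl5 (0.85) and Aldh1l2 (0.85), and in liver Rnf19b (0.95), Upp2 (0.93) and Stard7 (0.92). For Hsd11b1 they were Jpt1 (0.88), Ptpmt1 (0.87) and Pqlc1 (0.85) in the acute hippocampus. In the continuous hippocampus they were P2ry12 (0.94), the purinergic receptor typical of microglia, H2-D1 (0.93), an MHC class I gene, and Mpeg1 (0.92), which macrophages express. In liver they were Azgp1 (0.97), Gc (0.97), the vitamin D-binding protein, and Agt (0.96), angiotensinogen. These correlations share the treatment groups and the libraries, and no gene was common to the 3 data sets for any of the 3 members.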

How the data were processed

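The authors aligned the reads with STAR and counted them per gene with HTSeq in the BioWDL pipeline on mm10, and deposited raw counts for each sample without normalization or pooling. Annotation release and strand setting are not given in the sources used here. Group, tissue and mouse number came from the labels, and 0 columns belonged to no sample. The 10 members and the gene lists were chosen with earlier results of these data known.

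Gene positions and lengths came from GENCODE M21 (GRCm38), which held 52133 of 55414 acute and 55480 of 55573 continuous IDs. A separate list of gene names gave a symbol for 52081 acute and 55394 continuous IDs. Reads on no gene (13.0% to 15.9% of the acute, 11.7% to 13.9% of the continuous hippocampal and 15.4% to 23.3% of the liver reads) were left out. Genes above 20 median-of-ratios counts in 3 or more mice of any group were tested with edgeR 4.0.16 (R 4.3.3, quasi-likelihood F test, TMM, one coefficient per group, adjusted p under 0.05). CPM are TMM-normalized, log2 CPM used a prior count of 2, and errors of fold changes are SE. No 2 libraries agreed within sampling noise. Fits were tested on simulated data. Copies were sought with BLAST 2.17.0.

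Alternatives were DESeq2 1.42.0, its size factors, upper-quartile normalization, no filter, the 2 groups alone, each mouse left out, a covariate for or one side of the division of acute libraries, all mice of the continuous cohort, and the mouse number as a block. Fits by liver Arntl, the contrast within AS vehicle mice and library size alone were added after seeing the data. All 20 mouse numbers had one genotype and treatment in both tissues, as the study took both from the same animals, and were treated as pairs. Deviations of the same number in both tissues correlated at -0.08 to 0.08 over 11017 genes. Named are all members, the 2 genes of each list that passed with the largest change in each direction, Ube3a, and the 3 genes most like Nr3c1, Nr3c2 and Hsd11b1. Exon usage was not analysed here, and 1 result of the coregulator list is not reported here.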

Additional observations from a re-analysis of the deposited data

Results flagged for a closer look

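Of 112 groups of 4 to 6 mice, 6 held a mouse far from its group by the gap to its neighbour relative to the range of the group, and chance gives about 1 in 20. In the acute WT CORT hippocampus, mouse 8 had 30.9 CPM of Hsd11b1, next to 21.3. In the continuous WT vehicle hippocampus, mouse 4 had 80.8 CPM of Ptges3, below 91.7. In AS vehicle livers, mouse 2 had 20.97 CPM of Nr3c2, next to 12.3, and 580 of Serpina6, next to 272. In WT CORT livers, mouse 3 had 97.7 CPM of Serpina6, next to 65.0. In AS CORT livers, mouse 18 had 70.2 CPM of Nr3c1, below 74.7. Mice 2 and 3 are among the 6 livers of low Arntl.

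A difference in the CORT effect between groups passed the threshold for 5 members. For H6pd in the acute hippocampus the AS minus WT difference was -0.41 (adjusted p = 0.0445, edgeR). Between liver and hippocampus it was 1.12 for Hsd11b1, 0.42 for Hsp90aa1, 0.25 for Hsp90ab1 and 0.20 for Ptges3. The H6pd value was -0.22 (adjusted p = 0.891) with a covariate for the library division, and with the mouse number as a replicate block Hsp90ab1 (0.23, adjusted p = 0.099) and Ptges3 (0.16, adjusted p = 0.155) no longer passed.

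The left-out hippocampi lay above the vehicle mice that were kept for some members. Mouse 9 had 153 CPM of Nr3c1 (highest kept vehicle mouse 108), 194 of Stip1 (185), 153 of Fkbp4 (114) and 1094 of Hsp90aa1 (1093), and mouse 13 had 12.3 CPM of H6pd (10.1).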

How the results depend on the processing

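Counts of members past the threshold moved by over 1.5 times under these settings. CORT in acute AS hippocampus (2 members) gave 1 without a filter and 0 with the library covariate or with AS vehicle mice of the upper side only. AS against WT under acute CORT (1) gave 0 with DESeq2 size factors, no filter or the covariate, and 2 with upper-quartile normalization, the 2 groups alone or AS vehicle mice of either side. The acute interaction (1) gave 0 without a filter, with the covariate or with the upper side. In the continuous hippocampus, CORT in WT mice (1) gave 2 with DESeq2 and in mice of high liver Arntl and 0 with all 20 mice, and CORT in AS mice (2) gave 0 with all 20 mice. The liver minus hippocampus CORT effect (4) gave 1 with upper-quartile normalization, library size alone or all 40 samples. With the mouse number as a replicate block it gave 2, and vehicle liver against hippocampus, the other comparison fitted with the block, gave 10 as without it. The cause was not tested.

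Leaving out 1 mouse at a time gave 1 to 2 members for CORT in acute AS mice, 0 to 2 for AS against WT under acute CORT, 0 to 2 for the acute interaction, 1 to 2 and 1 to 3 for CORT in the WT and AS continuous hippocampus, 6 to 9 for CORT in WT liver and 3 to 5 for the difference between tissues. Directions reversed for Hsp90aa1 between AS and WT under acute CORT with the covariate (-0.051) and for Nr3c1 (-0.13) and Ptges3 (-0.19) between tissues with library size alone. Of single called values under other settings, 231 held, 32 lost the call and 3 reversed. Among all genes, calls for CORT in acute AS mice ranged from 130 to 4484 (2612 as reported), for AS against WT under acute CORT from 0 to 4039 (3645) and for the acute interaction from 0 to 2845 (656). Chaperone pairs past the threshold numbered 14 with TMM and 14 with DESeq2 size factors. Depth limits Serpina6 in hippocampus, at or under 3 counts.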
